A study of Mus musculus with 24 samples.

Results

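The genes described here are 8 immediate early genes of neurons: the AP-1 subunits Fos, Fosb, Jun and Junb, the zinc finger factor Egr1, the orphan nuclear receptor Nr4a1, the basic helix-loop-helix PAS factor Npas4, and Arc, which is not a transcription factor but a synaptic protein induced with them. They were taken by RefSeq symbol, and all 8 were found among the 21887 protein-coding genes of the table used. The window of each gene was its record and 10 kb either side. All samples were N1E115, a line derived from a mouse neuroblastoma, positive for NOS1 (neuronal nitric oxide synthase), and they were cultured at 4% O2 or at 20% O2 over 3 days. Chromatin immunoprecipitation with sequencing (ChIP-seq) measured 5 histone marks with 2 libraries per mark and oxygen level, which makes 20 libraries, and 4 input samples were not analysed here. The labels name no treatment other than oxygen.

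Immediate early genes are switched on within minutes of calcium entry or growth factor signalling, without the need for new protein synthesis. In neurons their promoters and enhancers are bound beforehand by CREB and SRF, which kinases activate. The products then regulate later genes: Fos and Jun family proteins pair into AP-1, Egr1 binds GC-rich sites, and Npas4 controls inhibitory synapse genes. Among the marks measured, H3K4me3 is typical of promoters, H3K27ac of promoters and enhancers in use, and H3K4me1 of enhancers. H3K36me3 follows transcription through a gene, and Polycomb silencing leaves H3K27me3.

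The promoters of 5 genes are shown because the marks treat them differently: peaks cover the Fos promoter throughout, the Jun promoter and part of the Junb promoter fall into a gap between H3K27ac peaks, Fosb has the largest H3K27ac difference on the log2 scale, and the Npas4 promoter was under no peak in any library. Each runs from 250 bases before to 50 after the start in RefSeq (GRCm38.p6), 300 bases written 5′ to 3′ on the gene's strand. Fos lies at chr12:85473640-85473939 on the plus strand, Fosb at chr7:19309996-19310295, Jun at chr4:95052173-95052472, Junb at chr8:84978699-84978998 and Npas4 at chr19:4989922-4990221, these 4 on the minus strand. Capitals mark the CREB-site core TGACG on either strand, the EGR site GCGNGGGCG, the TATA letters TATAAA, and in Jun the site TGACATCA, known from the human JUN promoter as an AP-1 and ATF site.
Fos: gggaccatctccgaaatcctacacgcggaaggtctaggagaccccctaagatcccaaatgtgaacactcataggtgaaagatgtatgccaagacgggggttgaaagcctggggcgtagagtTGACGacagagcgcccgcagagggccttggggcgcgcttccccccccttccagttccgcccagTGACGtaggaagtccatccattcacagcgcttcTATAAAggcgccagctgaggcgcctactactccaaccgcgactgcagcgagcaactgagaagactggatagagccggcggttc
Fosb: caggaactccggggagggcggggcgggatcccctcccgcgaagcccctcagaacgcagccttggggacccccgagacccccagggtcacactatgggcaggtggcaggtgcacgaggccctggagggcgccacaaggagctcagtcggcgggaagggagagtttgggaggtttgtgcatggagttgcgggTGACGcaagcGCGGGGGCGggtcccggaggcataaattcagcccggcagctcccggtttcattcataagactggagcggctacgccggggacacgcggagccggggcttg
Jun: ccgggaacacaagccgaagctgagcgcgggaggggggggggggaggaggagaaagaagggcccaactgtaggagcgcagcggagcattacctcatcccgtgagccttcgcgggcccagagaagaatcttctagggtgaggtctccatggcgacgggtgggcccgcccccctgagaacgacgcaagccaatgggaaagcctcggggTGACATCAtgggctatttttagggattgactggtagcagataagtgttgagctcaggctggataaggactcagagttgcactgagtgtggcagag
Junb: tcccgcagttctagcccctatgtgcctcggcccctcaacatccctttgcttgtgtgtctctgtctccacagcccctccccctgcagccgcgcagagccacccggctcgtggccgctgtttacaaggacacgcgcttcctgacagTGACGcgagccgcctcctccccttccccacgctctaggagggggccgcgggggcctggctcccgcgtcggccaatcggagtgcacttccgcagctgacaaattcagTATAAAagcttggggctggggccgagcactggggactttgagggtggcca
Npas4: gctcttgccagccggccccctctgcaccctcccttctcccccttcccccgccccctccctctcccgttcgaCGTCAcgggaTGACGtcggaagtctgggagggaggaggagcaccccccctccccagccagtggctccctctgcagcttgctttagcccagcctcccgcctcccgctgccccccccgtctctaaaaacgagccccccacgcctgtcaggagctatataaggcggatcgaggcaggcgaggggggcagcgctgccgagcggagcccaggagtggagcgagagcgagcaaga

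Promoter entries were found for 6 of the 8 genes. The core TGACG stood in 5 of these 6, with Jun the exception, and in 23.6% of all 21263 promoter entries searched on both strands. Nr4a1 held it 4 times, at -233 to -229, -213 to -209, -69 to -65 and -40 to -36, counted in bases from the start, and Fos held it at -129 to -125 and -66 to -62. In Npas4 the pair lay close together, at -179 to -175 and -169 to -165. None of the 6 had the full CRE TGACGTCA (2.23% of entries), the AP-1 site TGANTCA (6.99%) or the CArG box bound by SRF (1.52%) in this window. Egr1 and Arc, without an entry, were not searched. A match or its absence describes only these letters. The EGR site was in Fosb and Nr4a1 (7.52% of entries), and TATAAA in Fos and Junb (12.6%). TATAAA lay at -33 to -28 in Fos, but in Junb at 1 to 6, beginning on the start itself. Of the core letters of hypoxia-inducible factor sites, ACGTG was in none of the 6 (20.9% of entries) and GCGTG in 5 of 6 (38.5%), all but Jun. The Jun site TGACATCA lay at -45 to -38. It was added to the search after the sequence had been seen, and 3.66% of entries held it. TGACG and TGACGTCA are counted separately although a full CRE contains the core. GC content was 58.7% in Fos, 60% in Jun, 65.3% in Junb, 68.3% in Fosb, 69.3% in Npas4 and 72.3% in Nr4a1. All 6 lay above the median of all entries, 56.3%, and the part of base composition in the matches was not tested.

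The deposited lists held 26489 to 50496 H3K4me3 peaks, 60786 to 94286 H3K27ac peaks, 99749 to 126503 H3K4me1 peaks, 17535 to 20804 H3K36me3 islands and 22718 to 34471 H3K27me3 islands. The islands of a library held 13350093 to 25048785 reads of H3K36me3 or 8479517 to 12228541 of H3K27me3. The depth of the other marks is unknown, and the length their peaks cover also follows depth. Replicate 1 H3K4me3 lists had fewer and wider peaks, of a median 1553 and 1618.5 bp, than replicate 2 lists, of 646 and 552 bp. All replicate 2 libraries shared a flow cell, per the file headers. Among replicate 1 libraries those of 4% O2, except H3K4me1, were on another flow cell than those of 20% O2, so that oxygen and flow cell cannot be told apart there. The H3K4me1 libraries of replicate 1 shared a flow cell. Of 7 noradrenergic and cholinergic neuroblastoma markers (Phox2a, Hand2, Gata3, Isl1, Th, Dbh, Chrna3), all 7 had H3K4me3, H3K27ac and H3K36me3 in every library and none had H3K27me3. H3K4me3 was present in all 4 libraries near 2 of 6 glial, 2 of 5 immune, 2 of 5 endothelial and fibroblast and 2 of 3 liver markers, and the part of other cells in the results was not tested.

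Peaks of H3K4me3 were found at all 8 genes at both oxygen levels. Most of the 8, as most of all protein-coding genes, had no island of H3K27me3 in any library. Of the 40 combinations of a gene and a mark, 26 had a peak or island in all 4 libraries, 8 had none in any, and 6 had it in some libraries. H3K4me3 was present in all 4 libraries at 8 of 8 genes, against 66.1% of all protein-coding genes, and H3K27ac at 7 of 8, against 58.3%. H3K4me1 was present throughout at 6 of 8 (42.5% of all genes), H3K36me3 at 5 of 8 (54.6%) and H3K27me3 at 0 of 8 (23.1%). No H3K27me3 island lay in any library at 6 of 8 genes, against 64.4% of all genes. These shares are a description.

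The length of a window covered by peaks was used to compare oxygen levels, since peak scores cannot be compared between lists. More cells with a mark and more of the mark per cell cannot be told apart in it. Libraries of 4% and 20% O2 did not overlap for 8 of the 40 combinations, 4 with more and 4 with less covered length at 4% O2, and the exact permutation p of each was 0.333, the smallest that 2 against 2 libraries allow. In limma fits of log2(covered bp + 500) over all genes, none of the 8 genes passed an adjusted p of 0.05 for any mark. For H3K4me1 both oxygen levels of a replicate number shared a flow cell, and with the replicate number as a block Nr4a1 and Junb passed, 2 of the 6 genes tested, both lower at 4% O2; the block called 30.9% of 11099 genes lower and 0.00901% higher. For H3K4me3, 2 of the 8 genes were higher at 4% O2 without overlap (Nr4a1 and Npas4), against 4.46% of 14462 genes, and 0 were lower, against 16.2%; limma called 0.00691% of genes higher and 0.00691% lower. For H3K27ac, 2 of the 8 were higher (Fosb and Jun), against 25.4% of 12646 genes, and 0 lower, against 7.13%, with 0% of genes called by limma in either direction. For H3K4me1, 0 of 6 tested genes were higher, against 0.216% of 11099 genes, and 3 were lower (Junb, Nr4a1 and Arc), against 70.4%, with 0% called. For H3K36me3, 0 of 6 tested genes were higher, against 10.1% of 13220 genes, and 0 lower, against 21.5%, with 0% called. For H3K27me3, 0 of the 2 tested genes were higher, against 23.7% of 7463 genes, and 0 lower, against 5.36%, with 0% called. At an unadjusted p under 0.05 limma held 272 genes for H3K4me3, 648 for H3K27ac, 3618 for H3K4me1, 831 for H3K36me3 and 541 for H3K27me3. The median log2 difference (4% minus 20% O2) over all genes tested was -0.82 for H3K4me1, 0.12 for H3K27ac and 0.13 for H3K27me3, and -0.05 and -0.03 for H3K4me3 and H3K36me3.

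**Figure D1:**
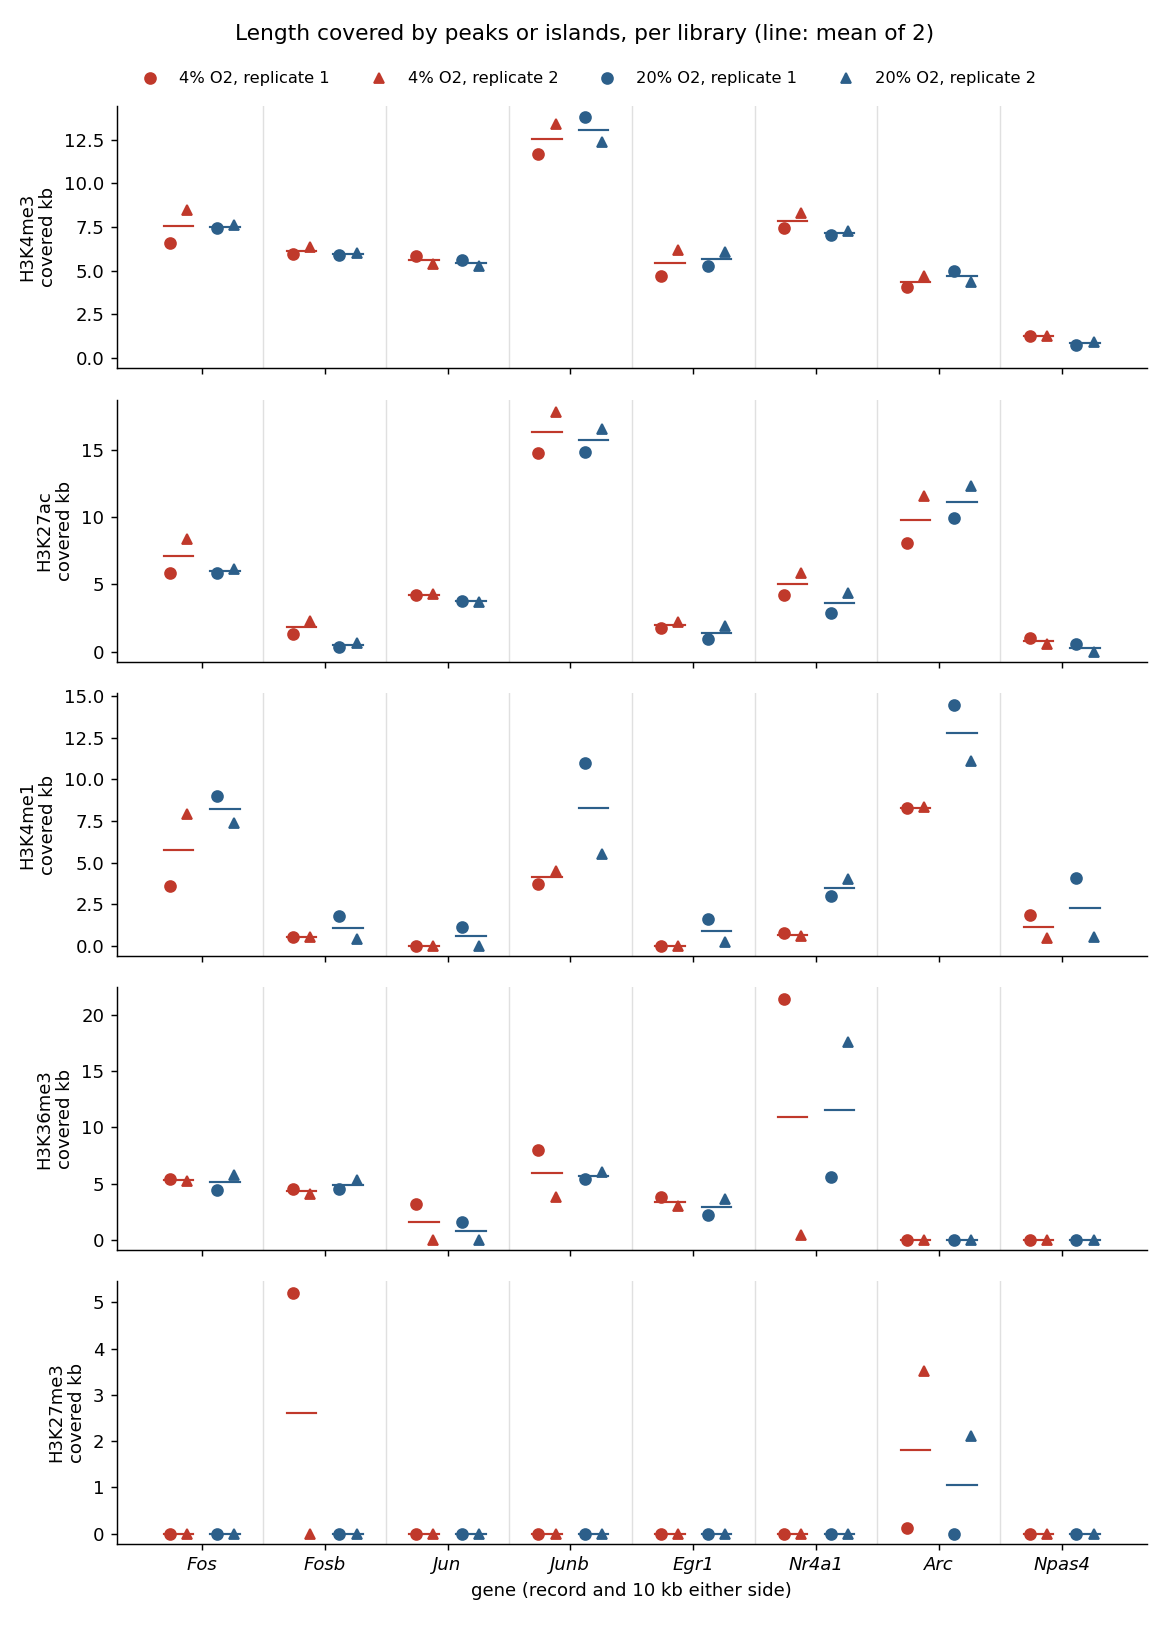
Length covered by peaks or islands in the window of each gene (y axis, kb), for 5 marks and 8 genes, with 1 point per library and a line at the mean of 2 libraries, 4% O2 in red left of 20% O2 in blue. Fosb H3K27ac was 1323 and 2299 bp at 4% O2 and 397 and 635 bp at 20% O2, and Nr4a1 H3K4me1 was 770 and 566 bp at 4% O2 and 2991 and 3995 bp at 20% O2.

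Fos encodes the founding partner of Jun in AP-1. Its gene lies at chr12:85473890-85477274 on the plus strand. H3K4me3 spanned the start in every library, in peaks from 2.6 kb before it to 1.5 and 2.6 kb after it at 4% O2 and to 2.4 and 2.5 kb after it at 20% O2. The authors' score of this peak stood above 98.4% and 99.5% of the H3K4me3 peaks in the 4% lists and above 93.5% and 98.3% in the 20% lists. The window held 6589 and 8484 bp of H3K4me3 at 4% O2 against 7440 and 7608 bp at 20% O2, so that the 20% libraries lay between those of 4%. H3K27ac covered 5873 and 8402 bp at 4% O2 and 5814 and 6159 bp at 20% O2, and these values overlapped. The printed promoter was covered over all 300 bases by H3K4me3 and by H3K27ac in all 4 libraries, which was the case for 46.8% of the 11452 starts with H3K4me3 nearby and 11.3% of the 9519 with H3K27ac. H3K36me3 began 0.5 to 0.7 kb after the start and ran past the gene end, over 79% to 84.9% of the record.

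A second block of H3K4me3 stood downstream of Fos, from 10.9 kb to about 14.4 to 14.6 kb after the start, in all 4 libraries. The gene table holds no record in the part of this block within 10 kb of the gene, and the rest of the block was not searched. The score of the block was above 84.4% of peaks in the replicate 1 list at 4% O2 and above 84.2% in that at 20% O2. H3K27ac peaks lay inside it in every library. Taken whole, the peaks that reached into the 10 kb after the gene end covered 1962 and 1526 bp at 4% O2 against 1601 and 1046 bp at 20% O2, and these values overlapped. H3K4me1 within that flank covered 371 and 827 bp at 4% O2 and 1427 and 1349 bp at 20% O2, lower at 4% O2 without overlap. Before the start, H3K4me1 covered 31.9% to 61.4% of the 10 kb flank. Over the whole window the H3K4me1 values were 3560 and 7891 bp at 4% O2 and 8995 and 7384 bp at 20% O2, and the difference had opposite signs in replicates 1 and 2.

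Fosb, a Fos relative whose truncated form accumulates in neurons after repeated stimulation, showed the largest H3K27ac difference among the 8 genes on the log2 scale, while in covered bp the mean differences of 1384.5 bp at Nr4a1 and -1303.5 bp at Arc were larger in size than the 1295 bp at Fosb. Its record is chr7:19302696-19310118, and it is read from the minus strand. H3K27ac covered 1323 and 2299 bp at 4% O2 and 397 and 635 bp at 20% O2, a mean of 1811 ± 690 bp against 516 ± 168 bp (SD, n = 2 each). Both 4% libraries lay above both 20% libraries, by 926 bp in replicate 1 and by 1664 bp in replicate 2, where all libraries shared a flow cell. The whole H3K27ac lists of replicate 2 covered 75.2 Mb at 4% O2 and 65.4 Mb at 20% O2. Those of replicate 1 covered 56.9 Mb at 4% O2 and 59.6 Mb at 20% O2. The part of these totals in the H3K27ac values of Fosb and the other genes was not tested. The log2 difference at Fosb was 1.16 (SE 0.31), or 1.05 above the median of all genes, and 99.2% of the 12646 genes tested had a smaller one. It did not pass the test, with a limma p of 0.0122 and an adjusted p of 0.927, which ran from 0.0745 to 1 over the alternatives tried. With a window of 25 kb either side the difference was 0.47, with a pseudocount of 100 bp 1.61. The H3K27ac peaks lay within 1 kb of the start, over 623 and 862 bp at 4% O2 and 0 and 398 bp at 20% O2, and 5.6 to 5.9 kb above the record's lower end, inside the gene. A further peak lay about 1.5 to 1.8 kb below the record, of 349 and 309 bp at 4% O2 and of 184 bp in replicate 1 of 20% O2. Replicate 2 of 4% O2 alone had 2 more inside the gene, 4.9 to 5.4 kb and 6.1 to 6.5 kb above its lower end. The second of these reached into the 1 kb around the start. The inner peak at 5.6 to 5.9 kb scored 59.7 and 72.2 at 4% O2 and 13.5 and 20.1 at 20% O2, above 87.9% and 97% of its lists at 4% O2 and above 58.6% and 73.2% at 20% O2. These are the authors' scores, which also follow the depth of each library.

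H3K4me3 at Fosb covered 5943 and 6323 bp at 4% O2 and 5879 and 6000 bp at 20% O2, which overlapped. The whole promoter printed above was under H3K4me3 in all 4 libraries, while H3K27ac covered 222 and 200 of its 300 bases at 4% O2 and 0 and 188 at 20% O2. H3K4me1 was sparse, 558 and 499 bp at 4% O2 and 1762 and 420 bp at 20% O2. No H3K36me3 island reached the Fosb record in any library. The 4104 to 5304 bp of H3K36me3 in the window belonged to an island that ended 4.7 to 5.9 kb below the record and ran over Rtn2, a reticulon gene. H3K27me3 islands of 3199 and 1999 bp lay above the record in replicate 1 of 4% O2 and in no other library, where the nearest island was 187 to 188 kb away.

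Jun, the main partner of Fos, lies at chr4:95049036-95052222 on the minus strand. H3K4me3 covered 99.1% to 100% of its record, and 5828 and 5358 bp of the window at 4% O2 against 5617 and 5270 bp at 20% O2. H3K27ac covered 4191 and 4313 bp at 4% O2 and 3749 and 3725 bp at 20% O2. The 4% libraries were higher without overlap, by 442 bp in replicate 1 and 588 bp in replicate 2, but the log2 difference of 0.17 (SE 0.20, limma adjusted p = 1) was 0.05 above the median of all genes. H3K4me1 occurred in replicate 1 of 20% O2 alone, over 1134 bp. H3K36me3 islands over the gene were found in replicate 1 at both oxygen levels, 3199 bp at 4% O2 and 1599 bp at 20% O2, and in neither replicate 2 library, where the nearest was 71.2 and 71.8 kb away. The lncRNA record Junos begins next to the start of Jun, so that a promoter mark there may belong to either gene.

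The printed Jun promoter lay in a gap between H3K27ac peaks in all 4 libraries, apart from 21 bases covered in replicate 1 of 20% O2. The gap ran from 311 and 293 bases before the start to 59 and 58 after it at 4% O2, and from 322 and 321 before to 28 and 49 after it at 20% O2. It was thus 371 and 352 bp wide at 4% O2 and 351 and 371 bp at 20% O2. H3K4me3 showed a gap at the same place in replicate 2, of 319 bp at 4% O2 and 295 bp at 20% O2, and ran through it in replicate 1, whose H3K4me3 peaks were wider throughout the genome. Junb had such a gap as well, with H3K27ac missing over 203 and 189 bp at 4% O2 and 215 and 267 bp at 20% O2. Low H3K27ac cover of the promoter window was not confined to these genes: among the 9519 promoter entries with H3K27ac nearby in every library, 37.9% had under 50% of their 300 bases covered in all 4.

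Junb, an AP-1 subunit that often opposes Jun, lies at chr8:84976909-84978748 on the minus strand and had the highest covered share of H3K27ac and of H3K4me3 of the 8 genes. H3K27ac covered 14735 and 17821 bp of its 21.8 kb window at 4% O2 and 14849 and 16539 bp at 20% O2, which overlapped. On the upstream side H3K27ac covered 80.3% to 93.6% of the 10 kb flank, most of it in a peak that reached 10.1 to 10.6 kb above the record's lower end. H3K4me3 covered 11672 and 13368 bp at 4% O2 and 13792 and 12345 bp at 20% O2, in opposite directions by replicate. Part of both marks belongs to the neighbours Prdx2, a peroxiredoxin gene, and Rnaseh2a, a ribonuclease H2 subunit gene, within the window. The top H3K4me3 peak lay 5.6 to 9.4 kb below the record at 4% O2, at those neighbours.

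**Figure D2:**
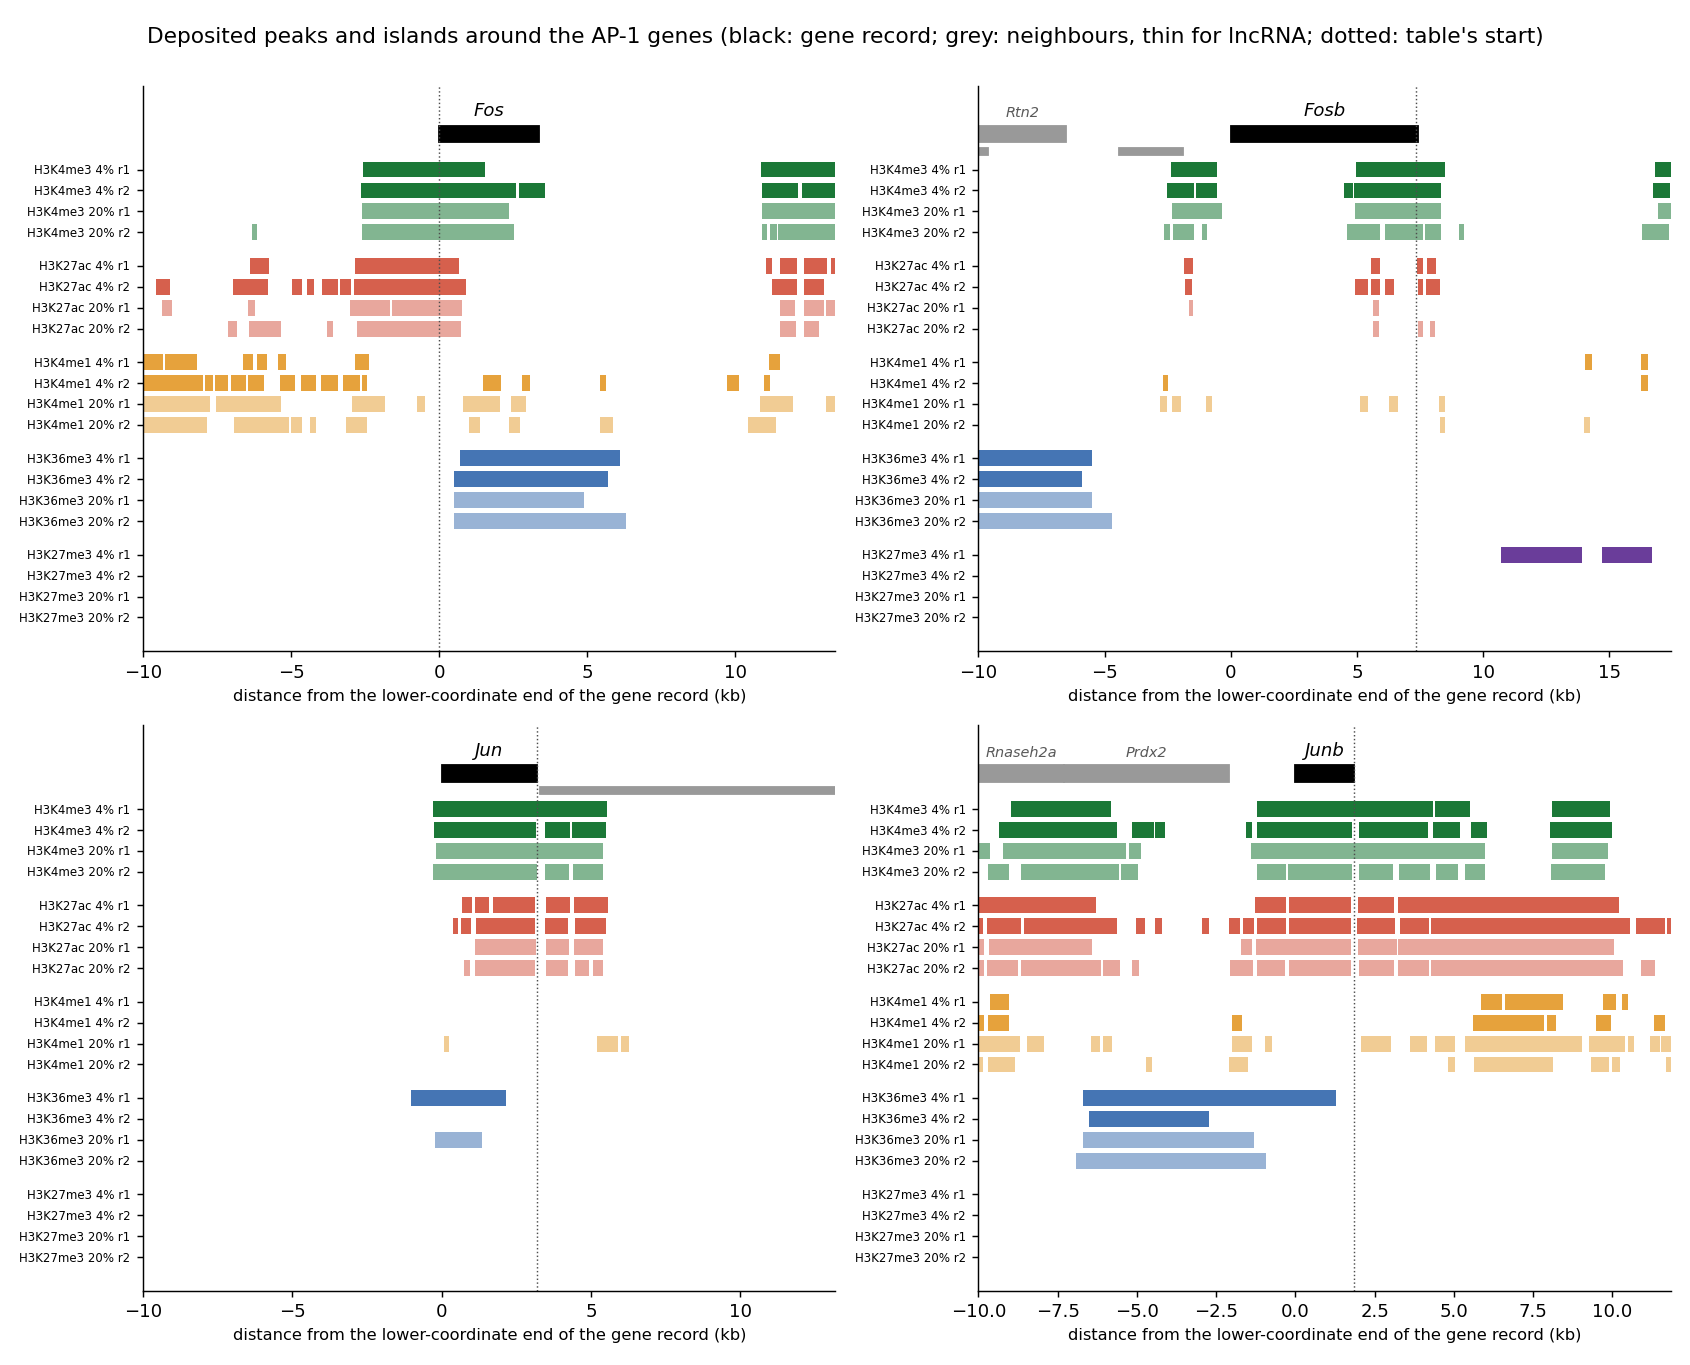
Deposited peaks and islands around Fos, Fosb, Jun and Junb, against distance from the lower-coordinate end of the gene record (x axis, kb), with a row per mark, oxygen level and replicate, 4% O2 in full colour above 20% O2 in pale colour. H3K4me3 spans the starts of Fos and Fosb in every library and leaves gaps of 319 and 295 bp at Jun in replicate 2, the H3K27ac gap at the start of Jun is 351 to 371 bp wide, and the H3K36me3 of the Fosb window lies at Rtn2.

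Egr1, whose product binds GC-rich promoters and responds to SRF, lies at chr18:34861207-34864956. A block of H3K4me3 ran across the lower end of its record, from 2.5 and 2.9 kb below it in replicate 1 at 4% and 20% O2 to 2.2 and 2.3 kb inside. It covered 4676 and 6155 bp at 4% O2 and 5245 and 6044 bp at 20% O2, which overlapped. H3K27ac covered 1777 and 2180 bp at 4% O2 and 929 and 1946 bp at 20% O2, higher at 4% O2 within each replicate but with overlap. Below the record alone it covered 1777 and 1744 bp at 4% O2 and 929 and 1695 bp at 20% O2, without overlap. H3K36me3 islands covered 58.6% to 94.8% of the record in all 4 libraries. H3K4me1 was absent from both 4% libraries and covered 1620 and 199 bp at 20% O2. The groups did not overlap, but the mean over the 4 libraries was below the minimum of 500 bp, so that this pair was not tested.

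Nr4a1, also known as Nur77, is a nuclear receptor without a known hormone and lies at chr15:101253902-101274795 on the plus strand. RefSeq's entry for its promoter lay 12.9 kb inside the record, while the stronger H3K4me3 peak was at the record's start, with a score of 341 and 225 at 4% O2 and 361 and 141 at 20% O2. At the inner start the highest peak score was 13 and 43.9 at 4% O2 and 25.2 and 23.6 at 20% O2. Over the window H3K4me3 covered 7424 and 8304 bp at 4% O2 and 7010 and 7257 bp at 20% O2. The 4% libraries were higher without overlap, by 414 and 1047 bp in replicates 1 and 2. The log2 difference was 0.13 (SE 0.185, limma adjusted p = 1), and with equal numbers of peaks it was 0.003. With peaks that cross the edge of the window taken whole, H3K4me3 covered 8803 and 9926 bp at 4% O2 and 8523 and 8830 bp at 20% O2, and these values overlapped. A further block of H3K4me3 and H3K27ac lay 6.2 to 9.1 kb before the record in every library, where the table holds no gene. H3K27ac on that side covered 2307 and 3287 bp at 4% O2 and 1904 and 2221 bp at 20% O2, higher without overlap. In replicate 2 at 4% O2 a further weak peak, 8.9 to 10.1 kb before the record, was part of that length. The window's top H3K4me3 peak belonged to Atg101, an autophagy gene, 29.3 to 32.5 kb above the lower end.

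H3K4me1 at Nr4a1 had the lowest log2 difference of the 6 genes tested. In the main fit, with 10 kb flanks and no replicate block, it did not pass the threshold. Peaks covered 770 and 566 bp at 4% O2 and 2991 and 3995 bp at 20% O2, a mean of 668 ± 144 bp against 3493 ± 710 bp (SD, n = 2 each). Every 4% library lay below every 20% library, with a difference of -2221 bp in replicate 1 and -3429 bp in replicate 2. The log2 difference was -1.77 (SE 0.58), or -0.95 relative to the median of all genes, and 6.53% of the 11099 genes tested had a lower one. Its limma p was 0.00522 and the adjusted p 0.0839; over the alternatives tried the adjusted p ran from 0.00723 to 0.427. With 25 kb flanks it passed, at -1.42 with an adjusted p of 0.035, and so it did with the replicate block, with an adjusted p of 0.00723. Those settings called 1823 of 13012 and 3434 of 11099 genes lower. The flank before the record, the record and the flank after it each had less H3K4me1 at 4% O2 without overlap.

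Arc, whose protein forms capsids and removes AMPA receptors from synapses, lies at chr15:74669081-74672570. It sat in a wide block of H3K27ac and H3K4me1. H3K27ac covered 96.6% to 100% of the record and 8041 and 11543 bp of the window at 4% O2 against 9910 and 12281 bp at 20% O2. This was less at 4% O2 in each replicate, with differences of -1869 and -738 bp, but with overlap. Arc was the only one of the 8 genes with less H3K27ac at 4% O2 in both replicates. H3K4me1 covered 8257 and 8324 bp at 4% O2 and 14424 and 11087 bp at 20% O2, lower at 4% O2 without overlap (log2 difference -0.58, SE 0.31, limma adjusted p = 0.18), or 0.24 above the median of all genes. The H3K4me3 peak over the gene stood above 99.1% and 99.4% of its lists at 4% O2 and above 94.3% and 98.9% at 20% O2, and no H3K36me3 island lay in the window in any library. An H3K27me3 domain ended 9.88 and 6.48 kb below the record at 4% O2 and 10.1 and 7.88 kb below it at 20% O2. The merged domain at chr15:74519801-74662599 held 5518 and 7310 reads at 4% O2 and 6265 and 9809 reads at 20% O2. Its reads per covered kb did not differ beyond the spread (log2 -0.09, SE 0.14, edgeR adjusted p = 0.851), and without replicate 2 of 20% O2 the value was 0.09.

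Npas4, a factor induced by calcium rather than by growth factors, had the least H3K4me3 and H3K27ac of the 8 genes by covered share. Its record is chr19:4984353-5003439, on the minus strand. The start in the promoter table had no H3K4me3 or H3K27ac within 1 kb in 3 of 4 and in 4 of 4 libraries, and the printed promoter had none of the 5 marks over it in any library. Among the 6 genes with a start in the table, 5 had H3K4me3 within 1 kb in every library, against 53.9% of all starts, and 3 had H3K27ac there in every library, against 44.8%. The only H3K4me3 peak of Npas4 shared by all libraries lay 17 to 17.9 kb above the record's lower end, close to its upper end, with scores of 29.3 and 42.1 at 4% O2 and 28.5 and 36.8 at 20% O2. H3K4me3 covered 1268 and 1260 bp at 4% O2 and 766 and 907 bp at 20% O2. Both 4% libraries were higher, by 502 and 353 bp in replicates 1 and 2. The log2 difference was 0.40 (SE 0.28, limma adjusted p = 1), above that of 99.4% of the 14462 genes tested, and it was 0.19 with equal numbers of peaks and 0.04 with 25 kb flanks. The additional peaks at 4% O2 were small, with scores of 7.12, 4.46 and 7.79. H3K27ac covered 1056 and 570 bp at 4% O2 and 590 and 0 bp at 20% O2, and neither H3K36me3 nor H3K27me3 was found in the window.

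**Figure D3:**
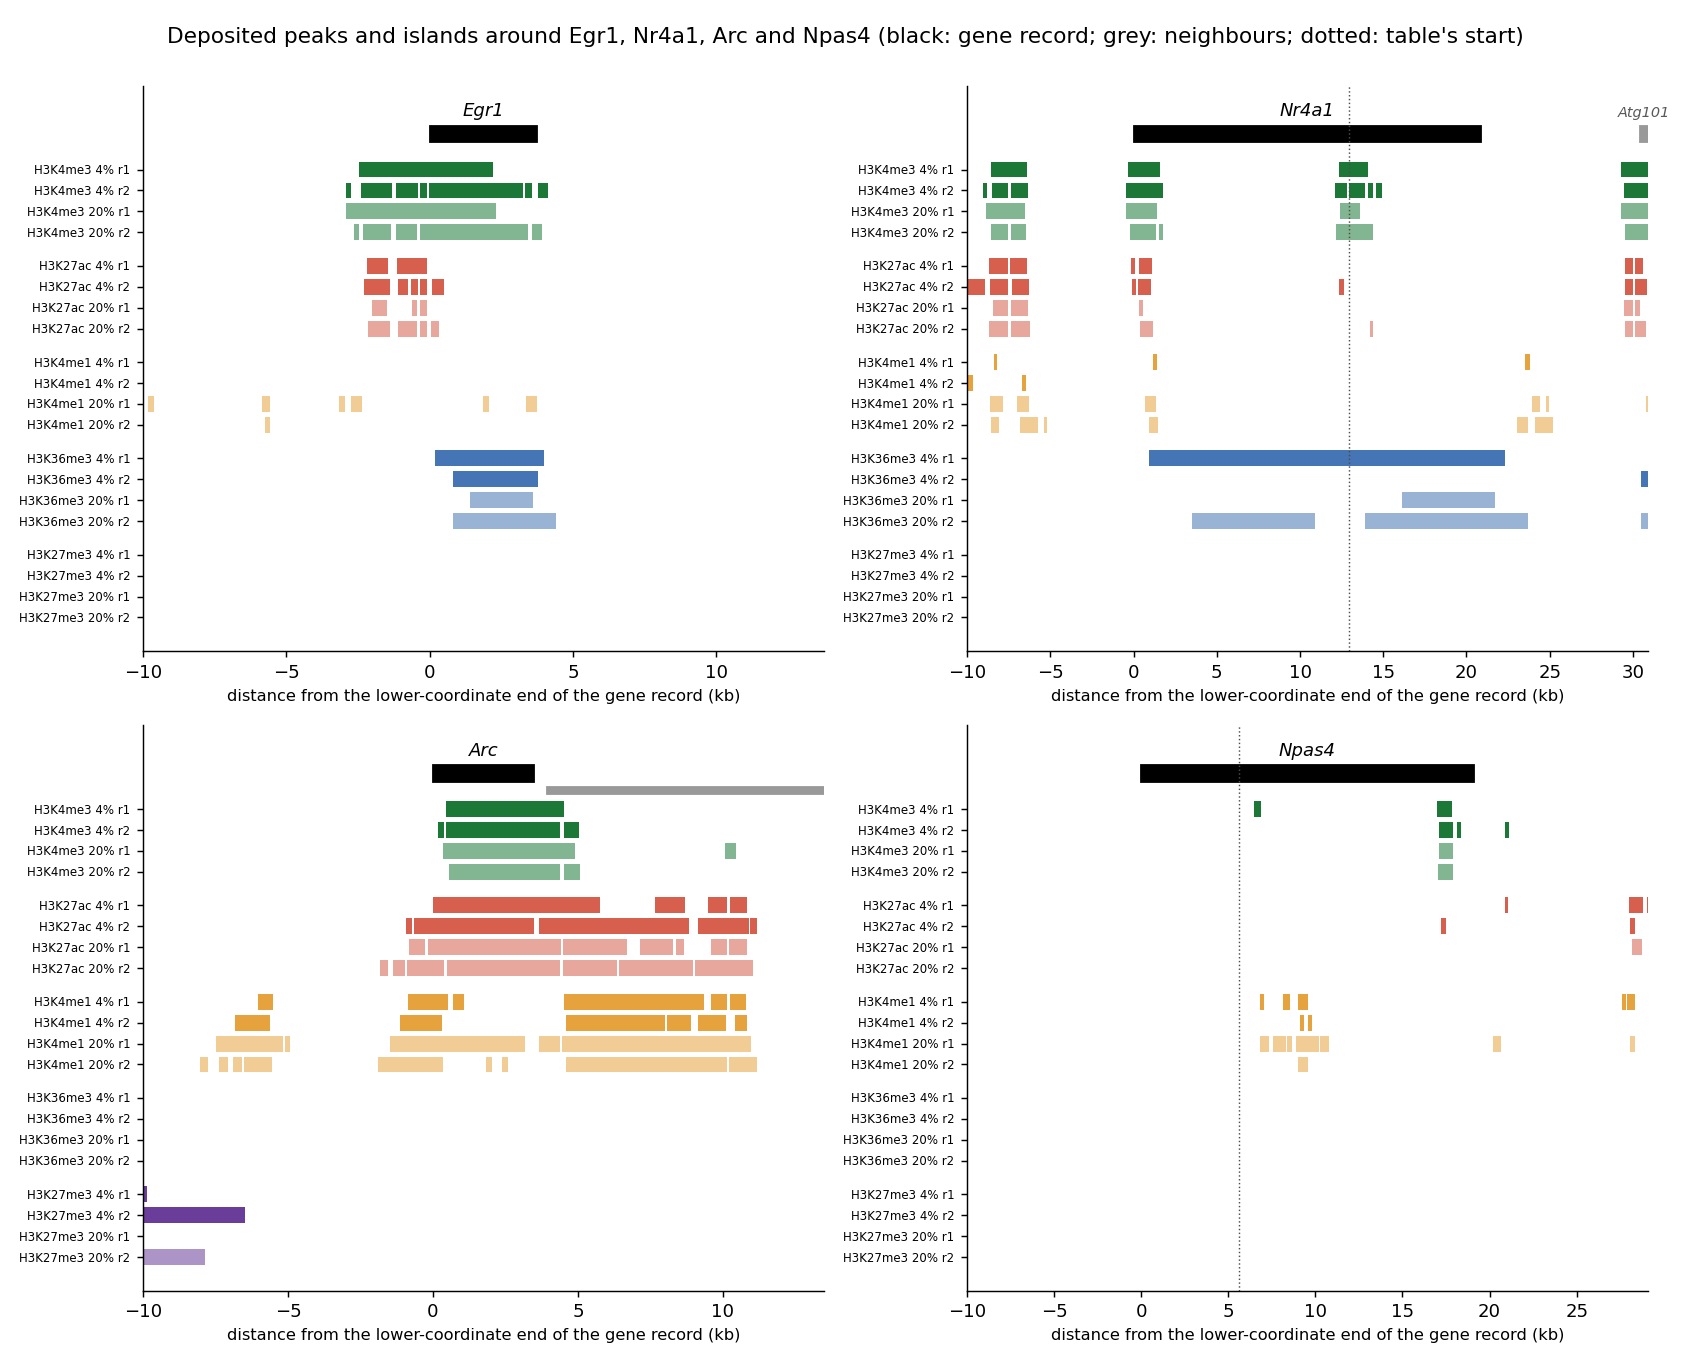
Deposited peaks and islands around Egr1, Nr4a1, Arc and Npas4, against distance from the lower-coordinate end of the gene record (x axis, kb), with a row per mark, oxygen level and replicate, 4% O2 in full colour above 20% O2 in pale colour. Arc lies in a block of H3K27ac and H3K4me1 without H3K36me3, and the shared H3K4me3 peak of Npas4 lies 17 to 17.9 kb from the lower end, away from the dotted start of the table.

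H3K27ac was higher at 4% O2 in both replicates at 6 of the 8 genes (Fos, Fosb, Jun, Egr1, Nr4a1 and Npas4), against 45.1% of all genes tested. The median log2 difference of the 8 was 0.31, against 0.12 over all genes. Npas4 entered this count and median through its 4% libraries. Its mean was 813 bp at 4% O2 and 295 bp at 20% O2, the latter below the minimum of 500 bp. The order of the genes by covered share of H3K27ac was Junb 73.2%, Arc 44.5%, Fos 28.1%, Jun 17.2%, Nr4a1 10.6%, Egr1 7.19%, Fosb 4.24% and Npas4 1.42%, each the mean of 4 libraries. Junb and Arc, Fos and Jun, and Jun and Nr4a1 had separate ranges over the 4 libraries, while the other neighbours in this order overlapped. For H3K4me3 the order was Junb 58.6%, Fos 32.2%, Jun 23.8%, Egr1 23.3%, Fosb 22%, Arc 19.2%, Nr4a1 18.3% and Npas4 2.69%, with Jun, Egr1 and Fosb overlapping and Arc and Nr4a1 overlapping.

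H3K4me1 was lower at 4% O2 in both replicates at 4 of the 6 tested genes, against 84.4% of all genes tested. The median log2 difference of the 6 was -0.57, against -0.82 over all genes. The whole H3K4me1 lists covered 61.0 and 63.8 Mb at 4% O2 and 105.9 and 81.8 Mb at 20% O2, and the part of this genome-wide difference in the values of the 8 genes was not tested. Junb had 3711 and 4508 bp at 4% O2 and 10984 and 5509 bp at 20% O2. Its log2 difference was -0.86 (SE 0.39, limma adjusted p = 0.139, and 0.0309 with the replicate block), at -0.03 relative to the median of all genes, and without replicate 1 of 20% O2 it was -0.39. Arc and Junb had their widest H3K4me1 on the side of higher coordinates, where Junb had 3091 and 3327 bp at 4% O2 and 7747 and 3692 bp at 20% O2.

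**Figure D4:**
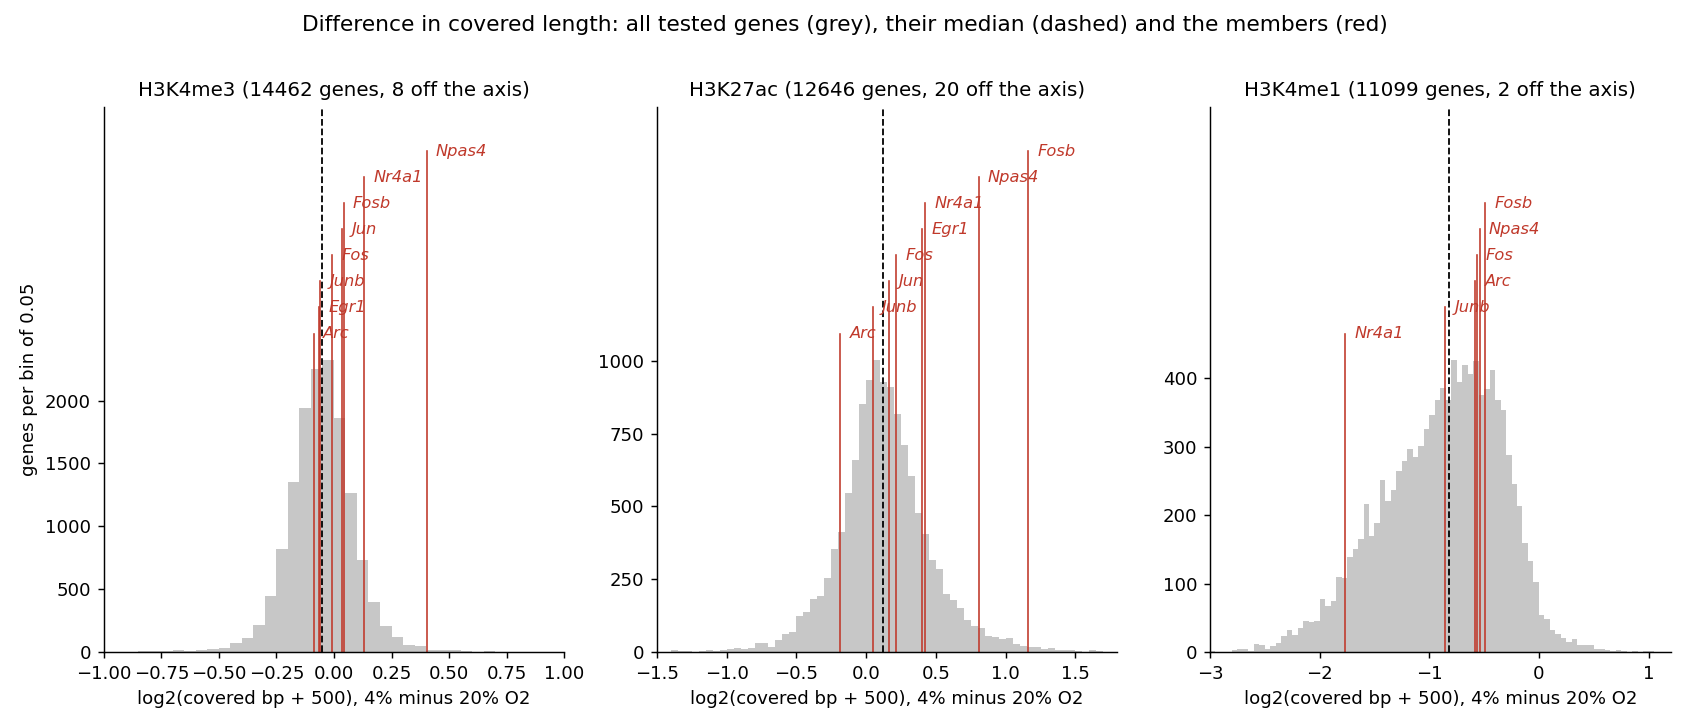
Distribution of the log2 difference in covered length (x axis, 4% minus 20% O2, log2(covered bp + 500)) over all genes tested for H3K4me3, H3K27ac and H3K4me1 (y axis, genes per bin of 0.05), with the median of all genes dashed and the 8 genes, or the 6 tested for H3K4me1, in red. Fosb at 1.16 lies near the right edge for H3K27ac, and Nr4a1 at -1.77 lies left of the median of -0.82 for H3K4me1.

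H3K36me3 islands lay on the records of 5 of the 8 genes in at least some libraries, and on those of Fos and Egr1 in all 4. An island reached the Junb record in replicate 1 of 4% O2 alone, over 1291 bp. In the other libraries it ended 0.91 to 2.71 kb below that record. Islands over Fos held 257 and 280 reads at 4% O2 and 314 and 194 at 20% O2, or 47.6 and 53.9 reads per kb against 71.4 and 33.5 reads per kb. Those over Egr1 held 155 and 100 reads at 4% O2 and 106 and 87 at 20% O2, or 40.8 and 33.3 reads per kb against 48.2 and 24.2. In both genes the 4% values lay between those of 20% O2, before any scaling for library depth, and replicate 1 of 20% O2 had the most reads in islands of the 4 libraries. The edgeR log2 ratio of read density was 0.23 (SE 0.15, adjusted p = 0.641) for Fos and 0.31 (SE 0.17, adjusted p = 0.597) for Egr1. The region shared by Prdx2 and Junb gave 0.11 (SE 0.15, adjusted p = 0.848), -0.02 without replicate 2 of 4% O2, that of Rtn2 0.20 (SE 0.13, adjusted p = 0.669) and that of Atg101 0.07 (SE 0.12, adjusted p = 0.898), which was -0.25 without the length offset. edgeR called 0% of 10756 H3K36me3 regions higher and 0% lower, and 0% of 9851 H3K27me3 regions in either direction; 975 and 949 regions had an unadjusted p under 0.05, and DESeq2 called 2 and 0. At Nr4a1 the islands varied more between replicates than between oxygen levels: 19995 and 0 bp of the record at 4% O2 and 4795 and 14394 bp at 20% O2.

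**Figure D5:**
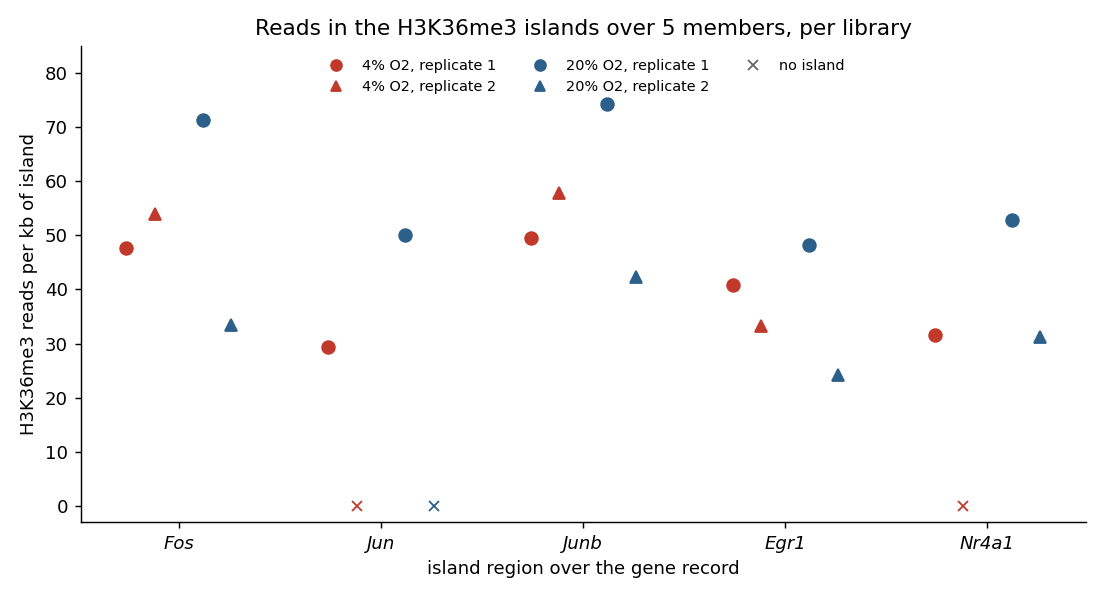
Reads per kb of island (y axis) in the H3K36me3 regions over Fos, Jun, Junb, Egr1 and Nr4a1, with 1 point per library and a cross where no island was called, 4% O2 in red left of 20% O2 in blue, not scaled for library depth. At Fos the values were 47.6 and 53.9 at 4% O2 and 71.4 and 33.5 at 20% O2, and at Jun both replicate 2 libraries lacked an island. The island plotted for Junb reached its record in replicate 1 of 4% O2 alone and lay below it in the other libraries.

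Across all 20 libraries the 8 genes did not share one pattern. The mean absolute difference in covered share was 2.94 percentage points between Fosb and Egr1, the closest pair, and 35.6 points between Junb and Npas4, the farthest. The gene on another chromosome most like each of them was Vwa1 for Fos (3.99 points), Ndufv1 for Fosb (2.14), Rpl10 for Jun (2.26), Irf2bpl for Junb (5.27), B4gat1 for Egr1 (1.18), Rgs19 for Nr4a1 (3.3), Enpp7 for Arc (5.1) and Clca2 for Npas4 (0.709). The median over all genes of the difference was 12.2 to 37.3 points, depending on the gene.

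In the main fits, with 10 kb flanks and no replicate block, no gene of 4 lists of related genes passed an adjusted p of 0.05 for any mark. The lists held 60 genes in all. With the block, 17 of the 47 tested for H3K4me1 passed, all lower at 4% O2, against 30.9% of all genes, and 0 passed for covered length of the other 4 marks. The shares of all genes without overlap, against which the counts below stand, were 25.4% higher and 7.13% lower for H3K27ac, 70.4% lower for H3K4me1, and 4.46% higher and 16.2% lower for H3K4me3. Of 16 other immediate early regulators, 14 were tested for H3K27ac, and 4 were higher and 0 lower at 4% O2 without overlap, with a median log2 difference of 0.17 against 0.12 over all genes. Maff, a small Maf protein, had 4030 and 4455 bp of H3K27ac at 4% O2 and 1688 and 1996 bp at 20% O2 (log2 1.02, SE 0.21, limma adjusted p = 0.885). Of 12 tested for H3K4me1, 8 were lower without overlap (median -0.64 against -0.82). Egr2, a relative of Egr1, had 1051 and 938 bp of H3K4me1 at 4% O2 and 3273 and 3369 bp at 20% O2 (log2 -1.36, SE 0.55, limma adjusted p = 0.111, and 0.0271 with the block). Of 14 tested effectors and feedback regulators, 6 were higher and 2 lower for H3K27ac (median 0.15), and 11 of 14 lower for H3K4me1 (median -0.97). Per1, a clock gene with a CREB site, had 13197 and 15836 bp of H3K27ac at 4% O2 and 7382 and 9969 bp at 20% O2 (log2 0.72, SE 0.27, limma adjusted p = 0.951). Gadd45b, a stress and demethylation gene, had 4162 and 3713 bp of H3K4me1 at 4% O2 and 11982 and 8691 bp at 20% O2 (log2 -1.27, SE 0.36, limma adjusted p = 0.0722). The adjusted p was 0.00124 with the block and 0.0209 with 25 kb flanks, a setting that called 1823 of 13012 genes lower. It was 0.144 with 2 kb flanks and 0.189 with equal numbers of peaks.

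Of 18 upstream regulators (CREB, SRF and their kinases and co-activators), 16 were tested for H3K27ac, with 4 higher, against 25.4% of all genes, and 2 lower, against 7.13% (median 0.19). Of 15 tested for H3K4me1, 12 were lower, against 70.4% (median -0.69). Camk2a, the neuronal calcium kinase, had 11457 and 14929 bp of H3K4me1 at 4% O2 and 24837 and 21929 bp at 20% O2 (log2 -0.81, SE 0.27, limma adjusted p = 0.0872). The adjusted p was 0.00664 with the block and 0.0404 with 25 kb flanks. It was 0.142 with 2 kb flanks and 0.189 with equal numbers of peaks. Elk4, an SRF partner, had 8022 and 6822 bp of H3K27me3 at 4% O2 and 23 and 0 bp at 20% O2, with a limma adjusted p of 0.429. The log2 difference was 3.95, and it was 3.84 without replicate 1 and 4.06 without replicate 2 of 4% O2. With 25 kb flanks it was 2.14, and with a pseudocount of 100 bp it was 6.08. Elk4 reached the minimum mean of 500 bp through its 4% libraries alone, and the size of its difference depends on the pseudocount. The limma adjusted p was 0.641 with the replicate block and 0.772 with 25 kb flanks. Of 10 later activity genes, 7 were tested for H3K27ac, with 2 higher, against 25.4% of all genes, and 0 lower (median 0.22). Of 7 tested for H3K4me3, 0 were higher and 1 was lower, against 16.2% (median 0.02 against -0.05). That one was Bdnf, the neurotrophin, with 3621 and 3339 bp of H3K4me3 at 4% O2 and 6300 and 4500 bp at 20% O2 (log2 -0.55, SE 0.18, limma adjusted p = 0.969). Vgf, a neuropeptide precursor gene, had 8738 and 9657 bp of H3K27ac at 4% O2 and 5770 and 6481 bp at 20% O2 (log2 0.55, SE 0.23, limma adjusted p = 0.957).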

How the data were processed

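ChIP-seq of 5 histone marks in N1E115 cells at 4% and 20% O2 was analysed from deposited peak lists, with 2 libraries per mark and oxygen level and groups taken from the sample titles. Per the submitters' processing notes, reads were aligned to mm10 with BWA and handled with Picard, and islands came from SICER; per the file headers, peaks came from MACS2 and each list from a single library. Versions are not given in the sources used here. MACS2 peaks of H3K4me3, H3K27ac and H3K4me1 carry a deposited score, read here as −log10 q. The deposited number per H3K36me3 and H3K27me3 island was read as a count of reads. Scores and counts are the authors' values. The interval lists of replicate 2 for the MACS2 marks were listed under replicate 1 and were assigned by their identical peak names and scores.

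Gene positions and promoters came from RefSeq tables for GRCm38.p6, the assembly of mm10. Covered length was tested with limma 3.58.1 (trend) on log2(covered bp + 500) over genes with a mean of at least 500 bp, and island reads with edgeR 4.0.16 (quasi-likelihood, TMM, offset of log covered length) over regions with at least 50 reads in every library, each with Benjamini-Hochberg adjustment over all genes or regions; DESeq2 1.42.0 was an alternative. The scripts were tested on simulated data. Nothing says whether replicates came from separate cultures, so p-values measure the spread between libraries, which may be technical.

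The 8 genes, the lists and the tests were chosen with earlier results of these data known. Tests are given for gene and mark pairs without overlap and for tested island regions. Genes of the lists without overlap were ranked per mark by the gap between the nearest 4% and 20% libraries, and the text prints some of those ranked first. The site TGACATCA was searched after the sequences had been seen. For H3K4me1, per the file headers, both libraries of a replicate number shared a flow cell (correlation of their deviations 0.446 over 11099 genes), so blocked values stand beside results they change; for the other marks this held for replicate 2 alone. Other windows, thresholds, equal numbers of peaks, another pseudocount, no filter, a replicate block and leaving out each library were tried, and, after seeing the data, peaks past the window edge taken whole. A further marker gene is not reported here.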

Additional observations from a re-analysis of the deposited data

How the results depend on the processing

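Settings below moved counts of genes, and the causes were not tested. Of 325 recomputed values for single genes or regions, 311 kept their direction and side of the threshold, 10 newly passed it and 4 changed sign. Of 125 recomputed counts, 86 stayed within 1.5 times the reported count and 39 did not. With 2 kb flanks, H3K4me1 and H3K36me3 were each present in all 4 libraries at 2 of the 8 genes, in place of 6 and 5, and 1 gene for H3K4me3 and 4 for H3K27ac did not overlap, in place of 2 and 2. With 25 kb flanks, H3K27me3 was present throughout at 1 gene, and 0 genes for H3K4me3 and 1 for H3K27me3 did not overlap. A stricter threshold left H3K36me3 at 1 gene, and equal numbers of peaks left 0 genes without overlap for H3K4me3. With peaks past the window edge taken whole, a setting chosen after seeing the data, 1 gene for H3K4me3 did not overlap. The shares of all genes at these other settings are not given here. These counts therefore describe the settings and are not a result about the 8 genes.

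Over all genes, limma called 2 for H3K4me3 covered length, against 0 with 2 kb flanks, 5 with a stricter threshold, 0 with equal numbers of peaks, 8 with the smaller pseudocount and 1 without a filter. For H3K4me1 it called 0, and 1823 with 25 kb flanks. DESeq2 called 2 H3K36me3 regions by read density, against 0 with edgeR. Leaving out 1 library at a time gave 0 to 21 calls for H3K4me3, 0 to 196 for H3K27ac, 0 to 350 for H3K4me1, 0 to 251 for H3K36me3 and 0 to 673 for H3K27me3, and by read density 0 to 54 for H3K36me3 and 0 to 132 for H3K27me3; the lone library is then assumed to vary like the other group.

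The replicate block gave 15 calls for H3K4me3, 43 for H3K27ac, 3435 for H3K4me1 and, by read density, 1140 for H3K36me3 and 1238 for H3K27me3. For covered length it gave 0 calls for H3K36me3 and 0 for H3K27me3. Libraries with the same number deviated together (correlations of 0.209 to 0.584 over genes or regions). Outside H3K4me1 the replicate 1 libraries of 4% and 20% O2 lay on different flow cells, so that there the pairing rests on replicate 2. Among the 8 genes the block changed the call for H3K4me1 at Nr4a1 and Junb only, with an adjusted p of 0.00723 and 0.0309.

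Log2 ratios that changed sign were the Junb density, -0.0207 to 0.2691 when 1 library was left out, the Nr4a1 and Atg101 density, -0.25 without the length offset, the Arc H3K27me3 density, -0.2383 to 0.0894 when 1 library was left out, and Camk4 H3K27ac, 0.0059 with 25 kb flanks. Without replicate 1 of 20% O2 the Junb H3K4me1 difference was -0.39. Peak calls carry no depth for the MACS2 marks, and 2 libraries a group set the limit on every p.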
